A study of Mus musculus with 60 samples.

Results

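Transcripts of 6 genes of the somites and the paraxial mesoderm were followed through tailbuds of mouse embryos: Meox1 (ENSMUST00000057054), Pax3 (ENSMUST00000004994), Foxc1 (ENSMUST00000062292), Foxc2 (ENSMUST00000054691), Aldh1a2 (ENSMUST00000034723) and Myf5 (ENSMUST00000000445). They were listed by name as known genes of this tissue, with earlier results of these data known, and are 6 of the 117135 transcripts in each deposited table. The deposited tables hold transcript identifiers and no gene names, and the reference tables at hand list none of these identifiers, so the symbols are those of the list by which the transcripts were chosen. The deposited length of 2725 bases for Foxc2 equals the span of that gene in RefSeq. The deposited length of 5844 bases for Foxc1 is greater than the RefSeq span of that gene, 3990 bases, so that this transcript is not the one RefSeq lists. The other 4 are shorter than the spans of their genes, which tests nothing, and all values are those of the transcripts with these identifiers.

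The study asked how accessory proteins of Polycomb repressive complex 2 limit the spread of its histone mark. Its RNA data are 27 libraries of total RNA, each from the tailbud of 1 embryo, staged by somite number. The wild-type groups held 4 embryos each at 12, 13, 14 and 16 somites, and the mutant groups held 2, 2, 2 and 5 embryos at the same stages. The titles call the mutants only MUT, while the overall design gives the substitution as JARID2 K116R, in an accessory subunit of the complex. The stem cell samples of the series include mutants of JARID2 alone and of JARID2 with PALI1, and for the tailbuds JARID2 is the one protein named, though no embryo's own label says so. Litter, sex, strain, zygosity and dissection are not given in the sources used here, so it is not known how much formed somite was taken with each tailbud. The labelled tissue could not be checked against marker genes, because the tables pair no other transcript with a symbol.

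The paraxial mesoderm is laid down from the tailbud, lies beside the neural tube as presomitic mesoderm, and is cut from front to back into somites, which later give rise to vertebrae, skeletal muscle and dermis. Aldh1a2 encodes the enzyme that makes retinoic acid in the somites and anterior presomitic mesoderm, and retinoic acid is kept low in the tailbud itself. Foxc1 and Foxc2 are forkhead transcription factors that act together in paraxial mesoderm and somite formation, Meox1 is a homeodomain factor of the somites, Pax3 marks the somite compartment from which muscle arises as well as the dorsal neural tube, and Myf5 is a factor that starts the skeletal muscle programme.

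The reference tables held the sequence around the transcription start for 3 of the 6 genes, from 250 bases before the start to 50 after it. Those of Aldh1a2 and Myf5 are shown because these were the transcripts with the highest and the lowest level, and because a high density of CG dinucleotides at the start site is a known property of many genes that Polycomb complexes bind. Sequences are from RefSeq on GRCm38.p6 and run 5′ to 3′ on the strand of the gene, with CG and TATAAA in capitals.
Aldh1a2 (chr9:71215539-71215838, plus strand): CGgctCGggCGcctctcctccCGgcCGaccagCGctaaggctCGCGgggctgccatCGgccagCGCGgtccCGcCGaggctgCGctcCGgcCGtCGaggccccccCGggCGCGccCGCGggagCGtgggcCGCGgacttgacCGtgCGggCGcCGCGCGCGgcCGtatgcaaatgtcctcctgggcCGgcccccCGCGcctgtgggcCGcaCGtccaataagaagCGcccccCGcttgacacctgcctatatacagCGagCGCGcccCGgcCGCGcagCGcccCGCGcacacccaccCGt
Myf5 (chr10:107486085-107486384, minus strand): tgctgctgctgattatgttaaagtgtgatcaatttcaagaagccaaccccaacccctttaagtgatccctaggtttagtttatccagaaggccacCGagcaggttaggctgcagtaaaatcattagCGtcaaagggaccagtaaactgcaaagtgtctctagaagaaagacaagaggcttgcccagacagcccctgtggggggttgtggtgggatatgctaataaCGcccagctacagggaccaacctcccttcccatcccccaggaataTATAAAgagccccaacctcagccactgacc
The Aldh1a2 window held 50 CG dinucleotides, a count reached by 0.9% of the 32544 distinct promoters of this length, against a median of 7. The Myf5 window held 3, a count that 76.9% of promoters reach. It contained the letters TATAAA, on the strand of the gene and 20 bases after the start, and 13.6% of all promoters hold TATAAA on either strand. This window lies inside the RefSeq span of Myf5, for which RefSeq lists 2 transcripts. It may therefore not surround the start of the transcript measured here, and its CG count may not describe that start. Foxc1, whose window is chr13:31806396-31806695 on the plus strand, had 32 CG dinucleotides, as many as or more than which are found in 9.6% of promoters. No chromatin data of these tailbuds were used, so the CG counts are a description of the sequence alone.

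The genes lie on 6 chromosomes in RefSeq on GRCm38.p6, Meox1 at chr11:101877510-101894354, Pax3 at chr1:78101267-78197136, Foxc1 at chr13:31806646-31810635, Foxc2 at chr8:121116171-121118895, Aldh1a2 at chr9:71215789-71296243 and Myf5 at chr10:107482908-107486927. The tables give estimated counts of reads and TPM, a relative abundance scaled by transcript length and library. The estimated counts per library summed to between 20908470 and 27090684. Counts per 1000000 reads (CPM) scaled by TMM factors compare 1 transcript between embryos, and TPM compares transcripts with each other. In bulk tissue such as this, fewer cells of a type and less RNA per cell cannot be told apart. Mutant embryo 1 at 16 somites had a mean correlation of 0.836 with the other embryos of its group, which had 0.874 to 0.878. In wild-type embryo 4 at 14 somites 0.246% of the counts lay on transcripts too low to test, against 0.129% to 0.139% in the rest of its group. Some of the results are also given without both.

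By TPM, Aldh1a2 was the most abundant of the 6 and Myf5 the least. The median over 27 embryos was 4.67 TPM for Aldh1a2, 2.82 for Foxc1, 1.11 for Foxc2, 0.869 for Pax3, 0.693 for Meox1 and 0.0403 for Myf5. Within single embryos Aldh1a2 exceeded Foxc1 in 23 of 27, Foxc1 exceeded Foxc2 in 27 of 27 and Meox1 exceeded Myf5 in 27 of 27. The 3 in the middle of the order were close: Foxc2 exceeded Pax3 in 16 of 27 embryos and Pax3 exceeded Meox1 in 17 of 27. Against the 45394 transcripts with enough counts to test, the level of Aldh1a2 was above 77.0%, that of Foxc1 above 70.2%, and those of Foxc2, Pax3 and Meox1 above 56.2%, 52.0% and 47.8%. Myf5 stood above 7.32%. Behind these levels were a mean of 403 estimated counts per library for Foxc1, 254 for Aldh1a2, 79.1 for Foxc2, 69.4 for Pax3, 42.1 for Meox1 and 3.11 for Myf5.

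**Figure D1:**
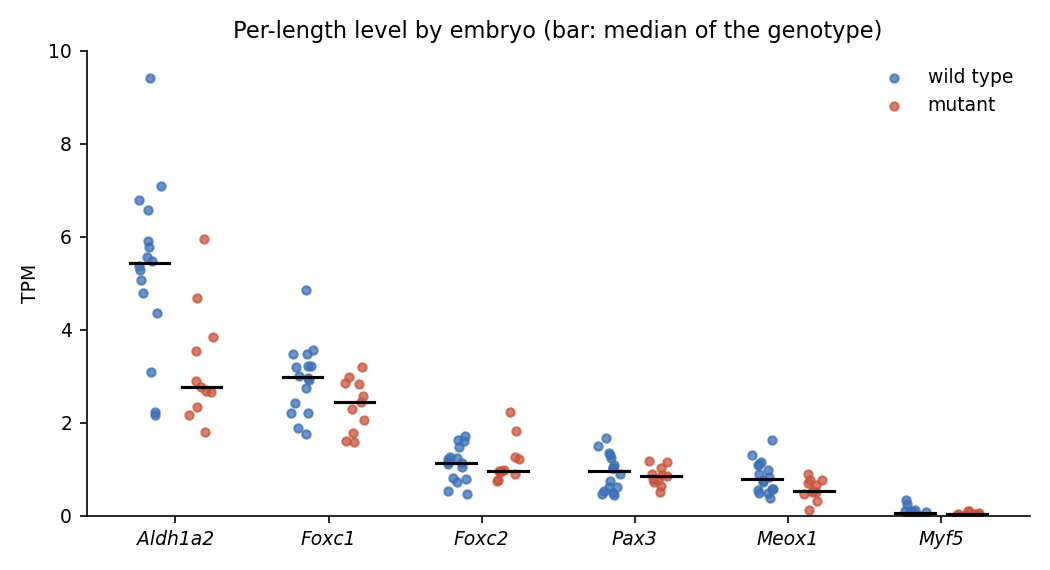
Level of each transcript in TPM (linear axis) in every embryo, with 16 wild-type embryos in blue and 11 mutants in red, side by side for each gene, and a bar at the median of each genotype. Aldh1a2 and Foxc1 stand highest, Aldh1a2 with a range of 1.79 to 9.42 TPM over the 27 embryos, and Myf5 lies near 0.

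Aldh1a2, the enzyme of retinoic acid synthesis, had a lower mean in the mutants at each of the 4 stages, although the difference did not pass the test across all transcripts. Of the tested transcripts, 9.78% had a lower mutant mean at all 4 stages. At 12 somites the wild-type embryos had 11.6, 10.8, 10.4 and 7.05 CPM and the mutants 8.36 and 5.07. At 13 somites the wild-type values were 14.8, 15.3, 10.9 and 11.5 CPM and the mutant values 5.99 and 7.49. Both mutants were thus below all 4 wild-type embryos at 13 somites, as was the case for 5.9% of tested transcripts, while at 12 somites 1 of 2 was. At 14 somites the wild-type embryos had 4.55, 12.5, 11.1 and 15.8 CPM and the mutants 4.52 and 8.64. At 16 somites the wild-type values were 15.0, 13.9, 5.02 and 17.6 CPM and the mutant values 7.05, 12.4, 6.82, 14.8 and 7.26. The groups overlapped at 12, 14 and 16 somites. At 14 and 16 somites a single wild-type embryo was far below the rest of its group, embryo 1 at 14 somites and embryo 3 at 16 somites. Of the 11 mutants, 10 were below the wild-type mean of their stage, the exception being embryo 4 at 16 somites. The share of all tested transcripts with such a count was not computed.

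Fitted over all stages, Aldh1a2 was 0.63 log2 units lower in mutants (SE 0.205, interval of 2 SE from -1.04 to -0.22), a wild-type level 1.55 times that of mutants. Its unadjusted p in edgeR's quasi-likelihood test was 0.00511 and its Benjamini-Hochberg adjusted p was 0.488, so it was not called. By stage the fitted log2 differences were -0.57 (SE 0.462) at 12 somites, -0.96 (SE 0.469) at 13, -0.74 (SE 0.464) at 14 and -0.41 (SE 0.347) at 16. The difference at 16 somites minus the mean of those at the earlier stages was 0.35 (SE 0.436, edgeR adjusted p = 1.00), so a smaller difference at the last stage was not shown. Both values depended on single embryos: without wild-type embryo 3 at 16 somites they were -0.67 at 16 somites and 0.08 for the difference between stages, without wild-type embryo 4 at 16 somites the former was -0.21, and without mutant embryo 2 at 14 somites the latter was 0.56. The unadjusted p stayed under the threshold of 0.05 in all 27 fits that each left out 1 embryo, with log2 differences from -0.72 to -0.56, and in all 10 alternative fits, with differences from -0.75 to -0.53 and adjusted p from 0.164 to 0.821. Without both libraries named above the log2 difference was -0.55 (edgeR adjusted p = 0.523).

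**Figure D2:**
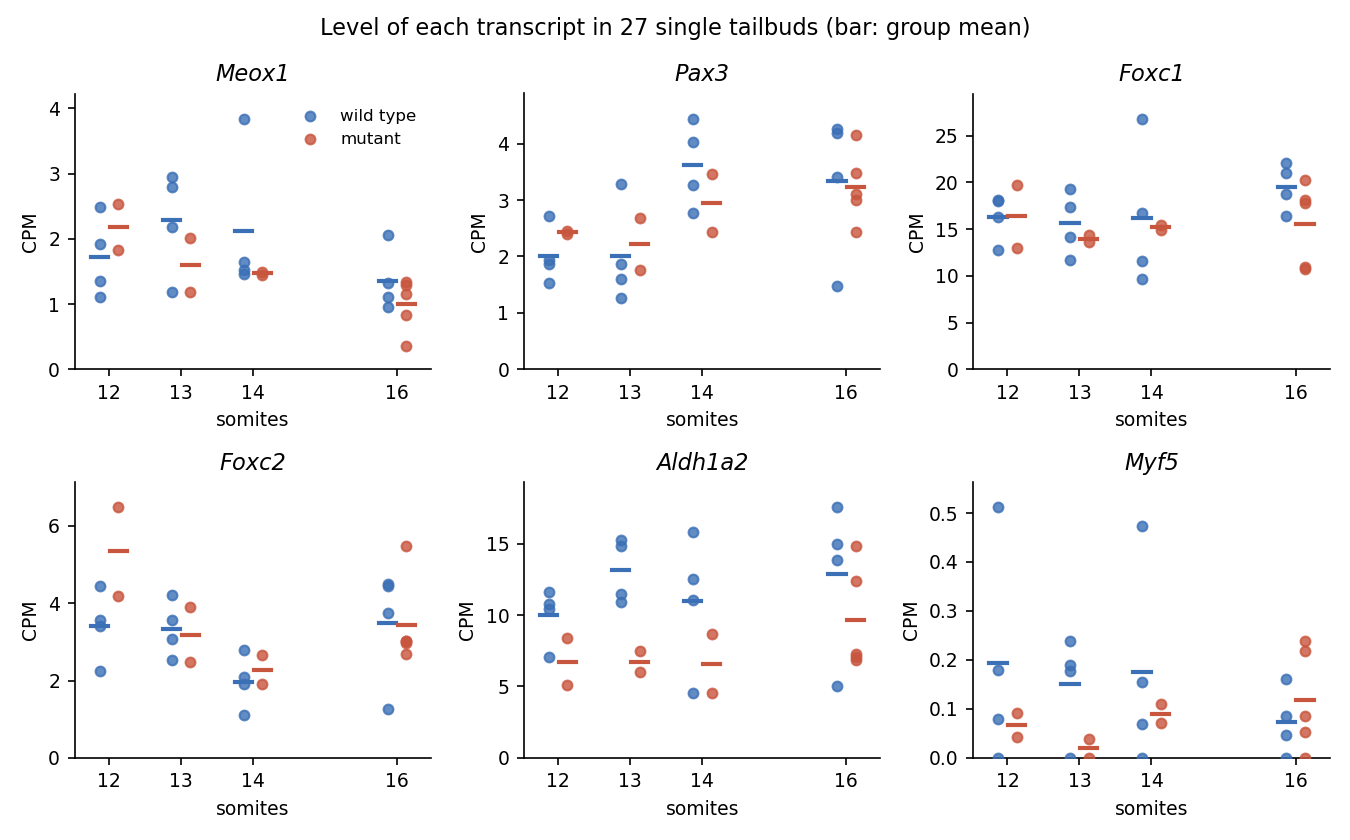
CPM (linear axes from 0) of each transcript against somite number, 1 panel per gene, with 16 wild-type embryos in blue, 11 mutants in red, and a bar at each group mean. In the Aldh1a2 panel both mutants at 13 somites lie below the 4 wild-type embryos, and at 14 and 16 somites 1 wild-type embryo lies far below the others of its group.

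Foxc1, the first of the forkhead pair, had the smallest within-group SD of the 6 in log2 CPM, 0.382, but the second highest, 0.294, in log2(TPM + 1). At 12 somites the wild-type embryos had 16.3, 12.7, 18.2 and 18.0 CPM and the mutants 19.7 and 13.0. At 13 somites they had 19.3, 11.7, 17.4 and 14.1 CPM against 14.4 and 13.6, both mutants within the wild-type range. At 14 somites the wild-type group held both the highest and the lowest value of all embryos, with 26.8, 11.6, 16.7 and 9.69 CPM, and the mutants at 15.5 and 14.9 lay between them. At 16 somites the wild-type values were 18.7, 21.0, 16.4 and 22.0 CPM and the mutant values 17.8, 10.9, 10.7, 18.1 and 20.3. There 2 of the 5 mutants lay below all wild-type embryos and the other 3 among them. Over all stages the mutant level differed by -0.17 log2 units (SE 0.140, edgeR adjusted p = 0.864), with an interval of 2 SE from -0.45 to 0.11. It was -0.09 without wild-type embryo 1 at 14 somites and -0.08 without the 16-somite embryos. In the other direction it was -0.23 without mutant embryo 1 at 12 somites and -0.22 without both libraries set apart above. The sign was kept in all 27 fits that each left out 1 embryo and in all 10 alternative fits, and none called it.

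Foxc2, the partner of Foxc1, was lowest at 14 somites. At 12 somites the wild-type embryos had 4.46, 3.42, 3.56 and 2.25 CPM and the mutants 6.49 and 4.20. At 13 somites they had 4.21, 3.56, 2.53 and 3.07 CPM against 2.48 and 3.89. At 14 somites the wild-type values were 2.78, 2.10, 1.91 and 1.10 CPM and the mutant values 1.91 and 2.66, so that the highest of the 6 embryos stood below the mean of 3.29 CPM at 13 somites. At 16 somites the wild-type embryos had 4.49, 3.75, 1.27 and 4.44 CPM and the mutants 2.70, 3.02, 2.96, 5.47 and 3.01, with the 2 extremes being wild-type embryo 3 and mutant embryo 4. The genotypes overlapped at all 4 stages. In 4 of 27 libraries, among them wild-type embryo 3 at 16 somites, the estimated counts of Foxc1 and Foxc2 were fractional and their sum was whole to within 0.001 (398.858 and 31.142 counts in that embryo), so reads were divided between these 2 transcripts there. Over all stages the mutant level differed by 0.17 log2 units (SE 0.196, edgeR adjusted p = 0.925), with an interval of 2 SE from -0.22 to 0.56. It was 0.07 without mutant embryo 1 at 12 somites and 0.27 without the 16-somite embryos.

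Meox1, the homeodomain factor of the somites, had its lowest mean at 16 somites. At 12 somites the wild-type embryos had 1.93, 2.48, 1.35 and 1.10 CPM and the mutants 1.83 and 2.54. At 13 somites they had 1.19, 2.80, 2.18 and 2.95 CPM against 1.18 and 2.01. At 14 somites the wild-type values were 1.46, 3.84, 1.53 and 1.64 CPM and the mutant values 1.45 and 1.495, a narrow group apart from wild-type embryo 2. At 16 somites the wild-type embryos had 1.32, 0.947, 1.11 and 2.06 CPM and the mutants 0.363, 0.832, 1.29, 1.15 and 1.34. The lowest of all, 0.363 CPM or 7 counts, was mutant embryo 1, the library that correlated least with its group. Over all stages the mutant level differed by -0.30 log2 units (SE 0.237, edgeR adjusted p = 0.854), with an interval of 2 SE from -0.77 to 0.18. Without both libraries set apart above this difference was -0.24 (edgeR adjusted p = 0.927). For Meox1 9 of 11 mutants were below the wild-type mean of their stage, as for Foxc1, with 8 for Myf5 and 6 each for Foxc2 and Pax3. The share of all tested transcripts with such counts was not computed. Without both libraries set apart above, the difference at 16 somites went from -0.45 (SE 0.404) to -0.22 log2 units, and neither value passed the test (edgeR adjusted p = 0.939 and 1.00).

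Pax3, the factor of the muscle-forming compartment, stood higher at 14 and 16 somites than at 12 and 13. At 12 somites the wild-type embryos had 1.53, 1.87, 1.94 and 2.72 CPM and the mutants 2.45 and 2.40. At 13 somites they had 1.27, 1.60, 1.87 and 3.29 CPM against 2.68 and 1.76. At 14 somites the wild-type values were 4.03, 3.26, 4.44 and 2.78 CPM and the mutant values 2.44 and 3.46. At 16 somites the wild-type embryos had 1.48, 3.40, 4.20 and 4.25 CPM and the mutants 3.11, 4.16, 3.48, 2.44 and 3.01. The genotypes overlapped at all 4 stages, and wild-type embryo 1 at 16 somites was the lowest of all embryos of 14 or 16 somites. Over all stages the mutant level differed by 0.01 log2 units (SE 0.177, edgeR adjusted p = 0.997), with an interval of 2 SE from -0.34 to 0.37. The sign of this difference turned between fits that each left out 1 embryo, which gave -0.06 to 0.08 log2 units. The estimated counts of Pax3 were whole numbers, to within 1e-06, in 0 of 27 libraries, where those of Meox1 and Myf5 were whole in 27 of 27, so some reads counted for Pax3 were shared by estimation with another transcript.

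Myf5, the muscle determination factor, was barely detected. It had 0 counts in 6 of the 27 libraries and 3 or fewer in 17, and a count of 0 allows up to 3 counts, or about 0.121 CPM, by counting error alone. The 16 wild-type libraries held 62 counts in all, with a lowest of 0, a median of 0.121 and a highest of 0.512 CPM. The 11 mutant libraries held 22 counts, with a lowest of 0, a median of 0.0706 and a highest of 0.239 CPM. The genotypes overlapped at 12, 13, 14 and 16 somites, and only wild-type embryo 4 at 12 somites, with 13 counts, and wild-type embryo 4 at 14 somites, with 15, had the 0.407 CPM that the filter on low values required. Myf5 was therefore tested only through 2 wild-type libraries, and its fitted difference of -0.76 log2 units over all stages (SE 0.887, edgeR adjusted p = 0.925) had an interval of 2 SE from -2.54 to 1.01. The second of these libraries is the one with the raised share of counts on low transcripts. Without both libraries set apart above Myf5 did not pass the filter and has no fitted value.

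Of the 6 transcripts, 0 passed an adjusted p of 0.05 for genotype over all stages in edgeR, where 7 of the 45394 tested, 0.0154%, passed. At an unadjusted p under 0.05 the members gave 1 of 6, Aldh1a2, and all tested transcripts 3462, or 7.63%. DESeq2 and limma called 189 and 42 transcripts and again 0 of the 6, though DESeq2 gave Myf5 no adjusted p here. The fitted difference was below 0 in 4 of the 6 (Meox1, Foxc1, Aldh1a2 and Myf5) and in 51.7% of all tested transcripts. The median was -0.23 log2 units over the 6 and -0.01 over all tested. Both the count below 0 and the median of the 6 include Myf5, which entered only through its 2 high wild-type libraries. That way of entry favours a lower mutant value, so neither the count nor the median is read as a result for the 6. At 16 somites alone edgeR called 0 of 45394 transcripts (0%), 2784 (6.13%) having an unadjusted p under 0.05, among them 0 of the 6. For that contrast DESeq2 called 253 and limma 1, again with 0 of the 6. The 6 differences there were -0.45 for Meox1, -0.04 for Pax3, -0.33 for Foxc1, -0.02 for Foxc2, -0.41 for Aldh1a2 and 0.67 for Myf5 in log2 units, with edgeR adjusted p from 0.885 to 1.00. The signs for Pax3 and Foxc2 turned under some of the alternatives.

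**Figure D3:**
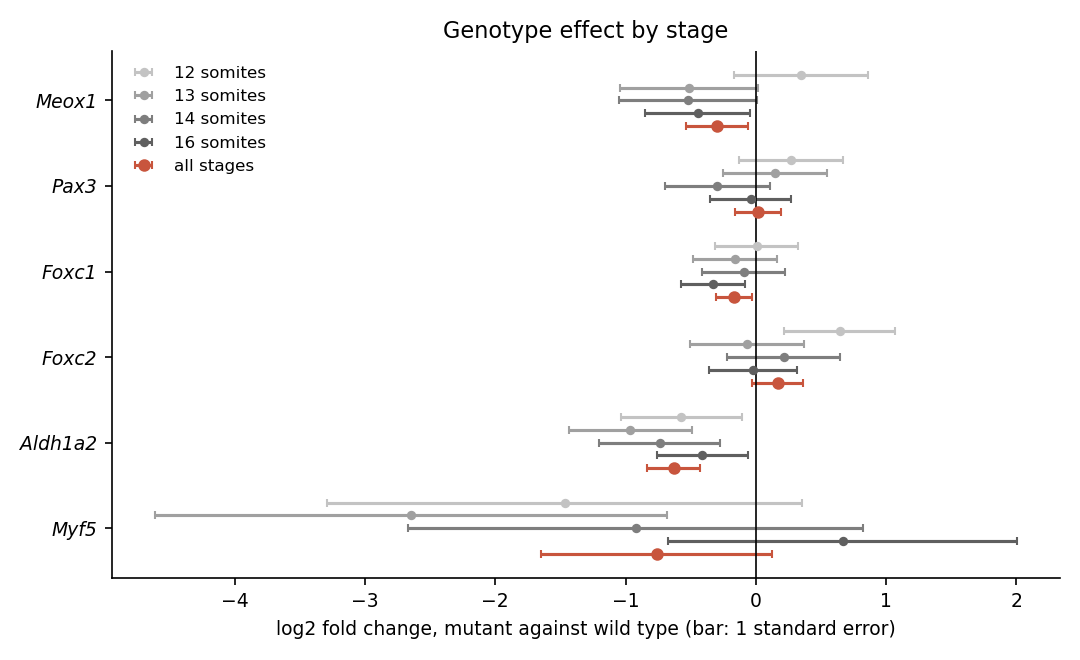
Log2 fold change of mutant against wild type for each transcript, at 12, 13, 14 and 16 somites (grey, darker with stage) and over all stages (red), with bars of 1 standard error. Only for Aldh1a2 among the 6 do the 4 stage values lie on one side of 0, from -0.96 to -0.41, and Myf5 has errors from 0.887 to 1.96.

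The genotype difference at 16 somites was also set against that at 12 to 14 somites. In that contrast 2 transcripts were called, 0.00441% of those tested, with 0 of the 6 among them by edgeR, DESeq2 or limma, and 0 of the 6 had an unadjusted p under 0.05 in edgeR, against 1881, or 4.14%, of all. The 6 differences of differences were -0.22 for Meox1, -0.08 for Pax3, -0.24 for Foxc1, -0.28 for Foxc2, 0.35 for Aldh1a2 and 2.34 (SE 1.69) for Myf5 in log2 units. Myf5 entered only through wild-type libraries of 12 and 14 somites, which favours a higher value in this contrast. Its value is therefore not read as a result.

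Across somite number, Meox1 and Pax3 had opposite trends in the combined fit of both genotypes, neither past the adjusted threshold. Pax3 had a slope of 0.17 log2 units per somite (SE 0.0595), with an unadjusted p of 0.00802 and an edgeR adjusted p of 0.454. Its mean over both genotypes went from 2.15 ± 0.445 (SD, n = 6) and 2.08 ± 0.756 (SD, n = 6) CPM at 12 and 13 somites to 3.40 ± 0.752 (SD, n = 6) at 14 and 3.28 ± 0.913 (SD, n = 9) at 16. The higher means began at 14 somites, and without the 16-somite embryos the slope was 0.33 (unadjusted p = 0.0191, edgeR adjusted p = 0.426). In that edgeR fit 3906 of 43328 transcripts had an unadjusted p under 0.05.

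Meox1 had a slope of -0.19 log2 units per somite (SE 0.0754), with an unadjusted p of 0.0189 and an edgeR adjusted p of 0.596. Its means were 1.87 ± 0.580 (SD, n = 6), 2.05 ± 0.760 (SD, n = 6) and 1.90 ± 0.953 (SD, n = 6) CPM at 12, 13 and 14 somites and 1.16 ± 0.457 (SD, n = 9) at 16. These means mix the genotypes unequally, with 2 mutants of 6 embryos at each early stage and 5 of 9 at 16 somites. In wild type the means were 1.72, 2.28, 2.12 and 1.36 CPM from the first to the last stage, and in mutants 2.18, 1.59, 1.47 and 0.995 CPM. Without the 16-somite embryos the common slope was -0.0034 (edgeR adjusted p = 0.999), and the mutant slope minus the wild-type slope was -0.44 (unadjusted p = 0.211, edgeR adjusted p = 1.00). Leaving out mutant embryo 2 at 12 somites also took the unadjusted p of the common slope above 0.05, to 0.0525. Without both libraries set apart above the common slope was -0.16 (unadjusted p = 0.0337, edgeR adjusted p = 0.633).

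Foxc2 showed the reverse dependence on the last stage. Its slope over all stages was -0.05 log2 units per somite (SE 0.0668, edgeR adjusted p = 0.961). Without the 16-somite embryos it was -0.47 (unadjusted p = 0.00191, edgeR adjusted p = 0.312), in the fit where 3906 of 43328 transcripts had an unadjusted p under 0.05. The means were 4.06 ± 1.42 (SD, n = 6), 3.29 ± 0.715 (SD, n = 6) and 2.08 ± 0.606 (SD, n = 6) CPM at 12, 13 and 14 somites and 3.46 ± 1.23 (SD, n = 9) at 16, an order that a straight line does not describe. Foxc1 had a slope of 0.04 (SE 0.0422), Aldh1a2 of 0.10 (SE 0.0616) and Myf5 of -0.02 (SE 0.302), with edgeR adjusted p of 0.944, 0.855 and 0.997. Without wild-type embryo 3 at 16 somites, the low one, the Aldh1a2 slope was 0.14 (edgeR adjusted p = 0.670).

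For somite number 91 of 45394 transcripts, 0.2%, were called by edgeR and 200 by DESeq2, with 0 of the 6 in either. DESeq2 gave Myf5 no adjusted p for this slope. At an unadjusted p under 0.05 the count was 2 of 6, Pax3 upward and Meox1 downward, against 6.52% of all tested transcripts. The slopes in wild type and in mutants came from 1 fit. For Pax3 they were 0.21 (SE 0.0822) and 0.12 (SE 0.0888), and for Meox1 -0.12 (SE 0.106) and -0.27 (SE 0.109). For Aldh1a2 they were 0.06 (SE 0.0837) and 0.15 (SE 0.0916), and for Foxc1 0.07 (SE 0.0571) and 0.00 (SE 0.0642). Foxc2 had -0.01 (SE 0.0918) and -0.09 (SE 0.101), and Myf5 had -0.31 (SE 0.337) and 0.31 (SE 0.350). The entry of Myf5 through early wild-type libraries favours a falling wild-type slope, so its slopes and their difference are not read as a result. The difference in slope between genotypes was called for 0 transcripts by edgeR (0%), with 2080 (4.58%) at an unadjusted p under 0.05, and for 61 by DESeq2. None of the 6 was among any of these, and their edgeR adjusted p was 1.00.

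**Figure D4:**
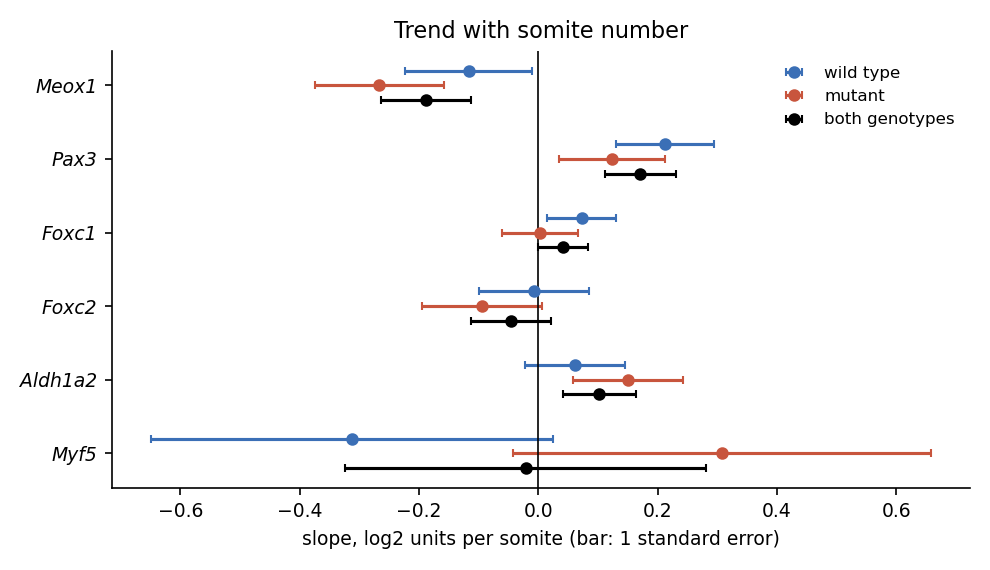
Slope of each transcript in log2 units per somite, in wild type (blue), in mutants (red) and over both genotypes (black), with bars of 1 standard error. Pax3 lies above 0 and Meox1 below 0 in both genotypes, and for each gene the error of the mutant slope is about as wide as that of wild type.

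Between embryos of one genotype and stage, the coefficient of variation was 35.7% for Aldh1a2, 26.4% for Foxc1 and 32.7% for Foxc2. It was 41.0% for Meox1, 29.0% for Pax3 and 115% for Myf5. The part that counting of reads alone would give was 4.98% for Foxc1, 6.27% for Aldh1a2, 11.2% for Foxc2, 12.0% for Pax3, 15.4% for Meox1 and 56.7% for Myf5. The biological coefficient of variation that edgeR estimated was 0.370 for Aldh1a2, higher than in 81.2% of the 3604 tested transcripts within 0.5 log2 CPM of its level, whose median was 0.240. That of Foxc1 was 0.267, higher than in 74.4% of transcripts of like level. Those of Meox1 (0.414), Pax3 (0.333) and Foxc2 (0.364) were higher than in 34.2%, 29.5% and 43.5%, below the median of their level. For Myf5 no such rank is given, since transcripts at its level enter the test through a few high libraries.

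No movement common to the 6 was detected from embryo to embryo. Deviations of log2 CPM from the group mean were correlated over 27 embryos for the 15 pairs, with permutation within groups, and 6 of 15 coefficients were above 0. They ran from -0.386, for Meox1 with Foxc1, to 0.506, for Foxc2 with Aldh1a2, with a median of -0.052. The count above 0 and the median include the pairs with Myf5, which had 3 or fewer counts in 17 of 27 libraries. Of the pairs with Myf5 only that with Aldh1a2 was above 0, at 0.258. Neither the count nor the median is therefore read as a result for the 6. By Pearson's r and by Spearman's rho 0 of 15 pairs had a Benjamini-Hochberg adjusted permutation p under 0.05.

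Foxc2 and Aldh1a2 were the closest pair, with r = 0.506 (permutation p = 0.0598, adjusted 0.448) and rho = 0.523 (permutation p = 0.0179, adjusted 0.269). Without the 2 embryos farthest from the median of Foxc2, wild-type embryo 3 at 16 somites and wild-type embryo 4 at 14 somites, r was 0.508 (permutation p = 0.0177, adjusted 0.266). Wild-type embryo 3 at 16 somites was the lowest of its group for both genes, at 1.27 CPM of Foxc2 and 5.02 CPM of Aldh1a2, and mutant embryo 4 at 16 somites was the highest mutant of that stage for both, at 5.47 and 14.8 CPM. At 14 somites wild-type embryo 4 went the other way, lowest of its group for Foxc2 (1.10 CPM) and highest for Aldh1a2 (15.8 CPM). Wild-type embryo 1 at 14 somites had the highest Foxc2 (2.78 CPM) and the lowest Aldh1a2 (4.55 CPM) of that group. That embryo 4 is among the libraries set apart above. Without both of these libraries r was 0.698 (permutation p = 0.00596, adjusted 0.0894) and rho 0.652 (permutation p = 0.00179, adjusted 0.0269), the latter past the threshold. The rise thus came with the removal of an embryo opposed to the pairing. The coefficient was 0.393 in the 16 wild-type embryos and 0.823 in the 11 mutants, and the difference between these was not tested. In the mutant groups of 2 embryos, at 12, 13 and 14 somites, the 2 deviations are equal and opposite by construction. The mutant coefficient therefore rests on fewer independent values than 11.

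The forkhead pair Foxc1 and Foxc2 had r = 0.420 (permutation p = 0.0472, adjusted 0.448) and rho = 0.336 (permutation p = 0.130, adjusted 0.566). Without the 2 embryos farthest from the median of Foxc1, wild-type embryos 1 and 4 at 14 somites, r was 0.243 (permutation p = 0.258), so the coefficient rested in part on those. Without both libraries set apart above r was 0.345 (permutation p = 0.0786, adjusted 0.374). Reads were divided between this pair in the 4 libraries with fractional counts, and their part in the coefficient was not tested. Pax3 had negative coefficients with Foxc2, r = -0.363 (permutation p = 0.205) and rho = -0.330 (permutation p = 0.152), and with Aldh1a2, r = -0.334 (permutation p = 0.190) and rho = -0.286 (permutation p = 0.189). Against the 24397 other transcripts whose mean reached 1 CPM, Foxc2 ranked 498 by its r with Aldh1a2, 2.04% of transcripts having a higher one, and Aldh1a2 ranked 458 by its r with Foxc2. The transcripts most like each of the 5 members at that level had r of 0.919 for Aldh1a2, 0.864 for Foxc1, 0.830 for Foxc2, 0.807 for Meox1 and 0.738 for Pax3. They are not named because the tables pair none of them with a symbol.

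**Figure D5:**
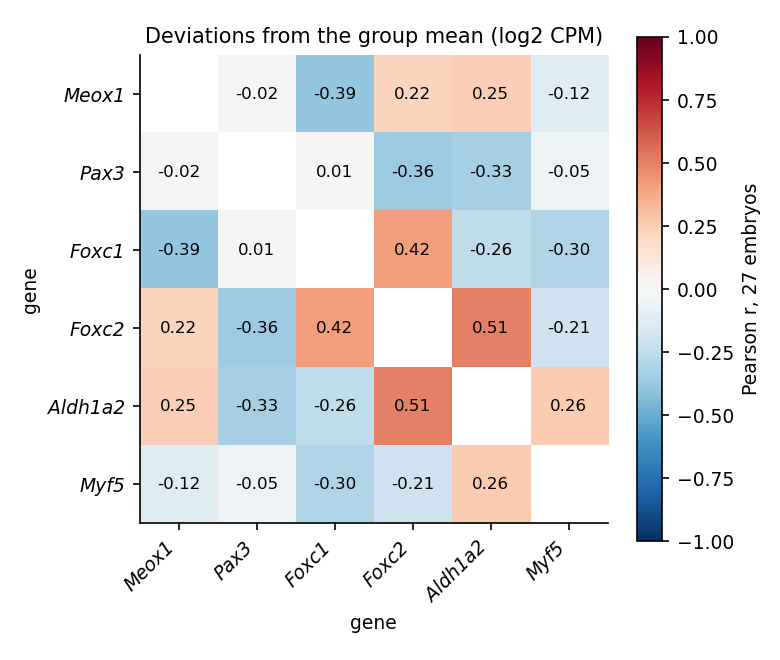
Pearson r between the 6 transcripts over 27 embryos, from deviations of log2 CPM from the mean of each genotype and stage, on a colour scale from -1 (blue) to 1 (red). The highest value is that of Foxc2 with Aldh1a2, 0.51, and the lowest that of Meox1 with Foxc1, -0.39.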

How the data were processed

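Total RNA of 27 tailbuds of single embryos was analysed. Of the 60 samples of the series, the 33 chromatin libraries were not used. The titles gave the genotype, stage and number of each embryo. Per the file headers, the authors deposited for each library and transcript a length, an effective length, an estimated count of reads and a TPM value. The submitters' processing notes name Trim Galore 0.5.0, Salmon 1.5.2, DESeq2 1.46.0 and the build mm10. The annotation release and the strand setting are not given in the sources used here. Salmon shares ambiguous reads among transcripts, so isoforms can trade reads. The deposited TPM values were used for levels and their order. The members and lists were chosen with earlier results of these data known.

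The deposited estimated counts were rounded and fitted with edgeR 4.0.16 (R 4.3.3). The filter was filterByExpr over the 8 groups (10 counts, 15 in total), which left 45394 transcripts, and TMM gave the scaling. For the tests, dispersions came from estimateDisp without tagwise values, followed by glmQLFit with the legacy setting and glmQLFTest, and an adjusted p is that of Benjamini and Hochberg over all 45394. The biological coefficients of variation are the square roots of tagwise dispersions from a separate estimateDisp call on the 8 groups. The standard error is the log2 change divided by the square root of F. Stage was a factor in the fit of genotype over all stages, effects at 1 stage came from a fit of the 8 groups, and slopes had somite number as a number. CPM and log2 CPM (prior count 2) were scaled by TMM. Correlations used 100000 permutations within groups, two-sided, and floors and counting errors cover counting alone. The procedure was tested on simulated counts. Alternatives comprised DESeq2 1.42.0, limma 3.58.1 (voom, sample weights), other filters, scalings and stages, and leaving out each embryo. A newer edgeR setting was added after the data were seen. Plots were made in matplotlib 3.10.9 under Python 3.11.15.

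The rule for named genes names the 6 members always, and other transcripts only with a symbol from a table. As 0 transcript identifiers of the deposited tables were found in the reference tables, the planned lists of other somite genes, markers of other cell types, other transcripts of the 6 genes and sums per gene were not run. In the 37 pairs of embryos of 1 group the lowest chi-square per degree of freedom over transcripts was 11.8, so none differed by sampling noise alone. Each library is 1 embryo, and the p-values take the embryos as independent and rest on the spread between them. Litters are not given, and if embryos of 1 stage or genotype share a litter, these p-values, those of the slopes included, could be too small.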

Additional observations from a re-analysis of the deposited data

Results flagged for a closer look

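In groups of 4 or 5 embryos the highest and lowest values were compared with the rest of the group by Dixon's ratio. Of 45 such comparisons, 30 of them on the 6 transcripts, 4 passed the 95% critical value, where chance passes about 1 in 20, or 2.25 here. Foxc2 in mutant embryo 4 at 16 somites was 5.47 CPM, with the other 4 mutants of that stage at 2.70 to 3.02. Meox1 in wild-type embryo 2 at 14 somites was 3.84 CPM, with the other 3 at 1.46 to 1.64. Wild-type embryo 4 at 14 somites had 0.246% of its counts on transcripts too low to test, where the other 3 had 0.129% to 0.139%. Mutant embryo 1 at 16 somites had a mean correlation of 0.836 with its group, against 0.874 to 0.878 in the other 4.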

How the results depend on the processing

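None of the 6 transcripts was called in any alternative or leave-one-out fit. Of their values 766 of 800 with 1 embryo left out and 266 of 278 under other alternatives kept direction and side of the threshold. As no member was called in the main fits either, these shares count kept signs alone. The fits share most of their embryos, so the shares are no independent test of the values. The counts over all transcripts moved more, and the causes were not tested. For genotype over all stages (7 called) they were 189 with DESeq2, 3 without a filter, 27 with a mean of at least 1 CPM, 42 with limma, 32 without both libraries set apart, 20 with the newer edgeR setting, and 0 without the 16-somite embryos (2282 at an unadjusted p under 0.05), where fewer samples entered. Leaving out each embryo gave 1 to 25, with 25 without wild-type embryo 2 at 14 somites, 22 without wild-type embryo 4 at that stage and 11 without mutant embryo 1 or 5 at 16 somites. At 16 somites (0 called) DESeq2 gave 253, limma 1 and single embryos left out 0 to 1. For 16 somites against the earlier stages (2 called) DESeq2 gave 187, no filter 1, limma 0, the newer edgeR setting 0, the fit without both libraries 1, and single embryos left out 1 to 13, the latter without mutant embryo 2 at 12 somites. For the slope (91 called) DESeq2 gave 200, no filter 159, the fit without 16-somite embryos 4, and single embryos left out 56 (wild-type embryo 2 at 16 somites) to 134 (wild-type embryo 4 at 14 somites). For the slope difference (0 called) DESeq2 gave 61, the newer edgeR setting 1, and single embryos left out 0 to 1. The median spread within groups went from 0.532 to 0.233 on the log2(TPM + 1) scale, whose pseudocount compresses low values.

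No pairing of embryos by number was detected: in 10 same-number pairs r was -0.12 to 0.04, with 0 over 0.1. In mutant groups of 2 embryos the deviations are equal and opposite by construction, so these pairs cannot settle whether the numbers pair embryos. With the replicate block the counts were 1, 0, 1, 38 and 0 for the same 5 tests, and the differences at 16 somites turned to 0.0611 for Pax3 and 0.0952 for Foxc2.

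Signs turned for the following values, none of them called. Pax3 over all stages was -0.0200 with the newer edgeR setting and -0.0632 to 0.0792 with single embryos left out. At 16 somites Pax3 was 0.0624 with limma (-0.286 to 0.103 with single embryos left out) and Foxc2 was 0.143 with limma, 0.00814 with effective lengths and 0.0700 without both libraries (-0.291 to 0.124). Against earlier stages Meox1 was 0.0530 without both libraries (-0.367 to 0.0578) and Pax3 0.0168 with limma (-0.324 to 0.0650). Without 16-somite embryos the slopes of Foxc1 and Myf5 were -0.0196 and 0.0239 and the Aldh1a2 slope difference was -0.0878. With single embryos left out the Myf5 slope was -0.0892 to 0.0511 and the Foxc2 slope difference -0.157 to 0.0102. Without the 2 farthest embryos r was 0.0027 for Meox1 and Pax3, 0.0178 for Pax3 and Myf5, 0.111 for Foxc1 and Aldh1a2, 0.0141 for Foxc1 and Myf5 and -0.0218 for Aldh1a2 and Myf5. Without both libraries r was -0.0877 for Pax3 and Foxc1 and 0.0445 for Pax3 and Myf5. Myf5 had no value in fits whose filter it did not pass, and no DESeq2 adjusted p for genotype over all stages or for the slope. Sums per gene were not run. Depth limits Myf5 most, with a mean of 3.11 counts.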
